A study of Mus musculus with 2 samples.

Results

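Relative reads and allelic ratios were determined for 7 genes of collagen fibres and their crosslinking, Col1a1, Col1a2, Col3a1, Col5a1, Col5a2, Col6a3 and Lox, in nuclei of adult and aged mouse hearts. The genes were taken by name, with no threshold on their values, and all 7 were listed in both libraries, among 25235 loci listed in either. 5 of them encode chains of fibrillar collagens, whereas Col6a3 encodes a chain of the beaded-filament collagen VI and Lox encodes lysyl oxidase, an enzyme. The genes held 4999 of 9747535 reads at 9 weeks and 3341 of 5805807 at 78 weeks. 5 of the 7 had at least 20 reads in each library, and Col1a1 and Lox did not.

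The samples were the hearts of 1 adult female of 9 weeks and 1 aged female of 78 weeks, both F1 hybrids with a C57BL/6J (BL6) mother and a CAST/EiJ (CAST) father. Their nuclei were studied by single-nucleus RNA sequencing (snRNA-seq) to follow genes that escape X-chromosome inactivation during aging. The labels give C57BL/6JxCAST/EiJ as the genotype of both hearts, while their breed field names the cross of mothers heterozygous for an Xist deletion, and the study describes both hearts as wild type. Nuclei were stained with the DNA dye DRAQ7, and the positive ones were sorted to leave out debris. Nuclei of all cell types in which the BL6 X chromosome was the active one (Xa) were pooled by the authors into 1 set of counts per age. A read was counted only where it overlapped a single-nucleotide polymorphism (SNP) between the strains, so that it could be assigned to the BL6 or the CAST allele. Each age had 1 library, so no difference between ages could be tested against the spread between animals, and every interval below is a 95% interval for counting error only. The BL6 allele was always the maternal one, and a difference between alleles by strain cannot be told apart from one by parent of origin.

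Fibrillar collagens form the tension-bearing fibres of the interstitial matrix of the heart and are made mainly by fibroblasts. Collagen I fibres give stiffness, collagen III accompanies them in more distensible fibres, and collagen V starts fibrils and limits their diameter. Lysyl oxidase oxidizes lysines of collagen and elastin so that neighbouring chains become crosslinked, and collagen VI forms a network between fibres and cells. Build-up of these proteins between cardiomyocytes is called fibrosis, which is common in old hearts.

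The 7 loci lie on 5 chromosomes, and their coordinates on GRCm38 are given here as deposited, counted from 1. Col1a1, the alpha1 chain of collagen I, spans chr11:94936224-94953042 on the plus strand. Col1a2, the alpha2 chain of the same collagen, spans chr6:4505618-4541543 on the plus strand. Col3a1, whose product forms collagen III alone, spans chr1:45311538-45349706 on the plus strand. Col5a2, the alpha2 chain of collagen V, lies next to it at chr1:45374331-45503282 on the minus strand, so that the ends of both genes face each other across 24.6 kb. Col6a3, the long alpha3 chain of collagen VI, spans chr1:90766860-90843971 on the minus strand. Col5a1, the alpha1 chain of collagen V, spans chr2:27886395-28039510 on the plus strand. Lox lies on a further chromosome. Each locus comprises exons, introns and untranslated regions, and none overlapped another listed locus. In the annotation of the same build, exons made up between 5.54% (Col5a1) and 39.0% (Col1a1) of the locus, so the long type V genes offered mostly intron to the SNP-overlapping reads of nuclei.

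The promoters of Col1a2, Col3a1, Col5a1 and Col6a3 are shown as examples, so that the letters can be set beside the values of these genes. Col1a1, Col5a2 and Lox are named only. Each sequence is the 200 bases from 250 to 51 bases before the transcription start in the RefSeq annotation of GRCm38.p6, written 5′ to 3′ on the strand of the gene, and it is the reference (BL6) sequence. Capitals mark matches to the TATA box, searched with the letters TATAAA. They also mark the GC box, for which the letters searched were GGGCGG. The CCAAT box was searched by its own letters, and every motif was sought on both strands, with no match overlapping another.
Col1a2, chr6:4505368-4505567, plus strand: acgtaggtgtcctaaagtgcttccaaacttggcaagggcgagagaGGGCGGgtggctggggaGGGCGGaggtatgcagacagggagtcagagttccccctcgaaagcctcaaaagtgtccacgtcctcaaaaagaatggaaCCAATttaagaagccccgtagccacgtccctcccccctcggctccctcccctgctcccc
Col3a1, chr1:45311288-45311487, plus strand: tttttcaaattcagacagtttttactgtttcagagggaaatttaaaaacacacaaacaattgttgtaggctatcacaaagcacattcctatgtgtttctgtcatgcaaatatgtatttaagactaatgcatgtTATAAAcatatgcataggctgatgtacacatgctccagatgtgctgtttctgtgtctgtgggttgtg
Col5a1, chr2:27886175-27886374, plus strand: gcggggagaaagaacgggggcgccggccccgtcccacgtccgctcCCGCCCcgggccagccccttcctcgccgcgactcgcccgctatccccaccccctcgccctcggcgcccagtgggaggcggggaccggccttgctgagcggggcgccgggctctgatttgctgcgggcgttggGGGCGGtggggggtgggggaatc
Col6a3, chr1:90844022-90844221, minus strand: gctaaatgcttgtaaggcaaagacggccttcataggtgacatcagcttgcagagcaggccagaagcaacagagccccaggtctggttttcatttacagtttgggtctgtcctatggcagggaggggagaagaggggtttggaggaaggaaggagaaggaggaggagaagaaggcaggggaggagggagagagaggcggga

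The promoters differed in base composition and in the motifs found. GC bases made up 35.2% of the 250 bases before the start of Col3a1, 57.2% at Col6a3, 62% at Col1a2 and 76.4% at Col5a1, against a median of 52.4% over 32851 mouse promoters. The Col3a1 window held 1 TATA box, 117 bases before the start, a motif found in 12.4% of all promoters. Col1a2 had a CCAAT box at 109 bases before the start and 2 GC boxes further upstream, at 188 and 205 bases. Col5a1 had a GC box on either strand, at 73 bases and at 205 bases, and the printed window of Col6a3 held none of the letters searched. The start used for the Col5a1 window lies downstream of the start of its locus as deposited. Its distances are therefore not counted from the locus coordinate given above. A CCAAT box was found in 33.8% of all promoters and a GC box in 32.7%. These shares and that of the TATA box are over the 250 bases before the start, while the printed windows hold 200. These matches describe the letters of the window, and no binding of a factor was measured.

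The levels of the 7 genes in the pooled nuclei were unequal. Levels are given as SNP-overlapping reads divided by the reads of all loci of the library and scaled to 1000000 (RPM). Between genes they are compared mainly as RPM per kb of locus, which still depends on the number of SNPs and was not corrected for it. Comparisons between genes by RPM, by shares of reads or by reads of Col5a2 per read of Col5a1 are not divided by length either. The libraries were made with a kit that reads transcript ends, and whether reads scaled with locus length was not tested. The order of genes rested partly on the division by length. Before it, Col5a1 (48.0 RPM) and Col3a1 (47.7 RPM) were alike in the adult library, and Lox (3.39 RPM) was far below Col5a1. Col5a2 (345 RPM) was highest and Col1a1 (1.64 RPM) lowest there without the division too. In the adult library Col5a2 was highest at 2.68 RPM per kb, followed by Col3a1 at 1.2 and Col1a2 at 1.18, whose intervals overlapped. Col6a3 (0.322 RPM per kb), Col5a1 (0.314) and Lox (0.245) came next with overlapping intervals, and Col1a1 was lowest at 0.0976. In the aged library Col5a2 was again highest at 2.81 RPM per kb, Col1a2 stood at 1.05, Col3a1 at 0.817, Col6a3 at 0.672 and Col5a1 at 0.577, and from Col1a2 down to Col5a1 each interval overlapped that of the next gene. Lox (0.1497 RPM per kb) and Col1a1 (0.143) were lowest, with overlapping intervals. Thus collagen I, represented by Col1a1 and Col1a2, was read mostly through Col1a2, and Col1a1 gave 16 and 14 reads in all.

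Between the ages the genes moved in different directions. Col5a1 and Col6a3 were higher at 78 weeks by more than 1.5-fold, Col3a1 was lower by more than 1.5-fold, and Col1a2 and Col5a2 stayed within it. Among all 12736 loci with at least 20 reads in each library, 28% were higher and 11.8% were lower by this fold, and the median locus had a relative level of 1.17 (aged/adult, 0.22 on the log2 scale). The 5 collagen genes ranged from 0.654 to 2.09 around a median of 1.05.

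Col5a1, which encodes the chain present in every common form of collagen V, had 468 reads at 9 weeks and 513 at 78 weeks. Its level was 48.0 RPM (43.8 to 52.6) at 9 weeks and 88.4 RPM (80.9 to 96.3) at 78 weeks, 1.84 times as high (1.62 to 2.09). The intervals did not overlap, and 84.7% of all loci had a lower ratio. Col6a3 went from 24.8 RPM (21.8 to 28.2, 242 reads) to 51.8 RPM (46.2 to 58.0, 301 reads), a ratio of 2.09 (1.76 to 2.48). It had the highest ratio of the 5 genes and stood above 90.0% of all loci.

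Col3a1 had 47.7 RPM (43.5 to 52.2, 465 reads) at 9 weeks and 31.2 RPM (26.8 to 36.1, 181 reads) at 78 weeks. Its ratio of 0.654 (0.547 to 0.778) was the lowest of the 5 genes and above only 11.1% of all loci. Col1a2 had 42.3 RPM (38.3 to 46.6, 412 reads) and 37.5 RPM (32.7 to 42.9, 218 reads), with a ratio of 0.888 (0.750 to 1.05) that included equality. The interval of Col3a1 lay below equality, and that of Col1a2 did not.

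Col5a2 carried most of the reads of the group, with 3363 at 9 weeks and 2102 at 78 weeks. Its level of 345 RPM (333 to 357) at 9 weeks and 362 RPM (347 to 378) at 78 weeks differed by a factor of 1.05 (0.993 to 1.11), within counting error. Since Col5a1 was higher and Col5a2 was not, 7.19 reads of Col5a2 were counted per read of Col5a1 at 9 weeks and 4.10 at 78 weeks. Collagen V is usually assembled from both chains, and these counts are of SNP-overlapping reads in nuclei, not of chains.

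Col1a1 and Lox had few reads and wide intervals. Col1a1 was at 1.64 RPM (0.938 to 2.67) and 2.41 RPM (1.32 to 4.05), a ratio of 1.47 (0.664 to 3.21). Lox gave 33 and 12 reads, or 3.39 RPM (2.33 to 4.75) and 2.07 RPM (1.07 to 3.61), a ratio of 0.611 (0.287 to 1.21). Both intervals included equality, and a difference in total reads was not detectable at this depth, although the interval of Lox left out ratios as high as those of Col5a1 and Col6a3. By allele, the BL6 reads of Lox had a ratio of 0.258 (0.0655 to 0.745), from 26 and 4 reads.

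**Figure D1:**
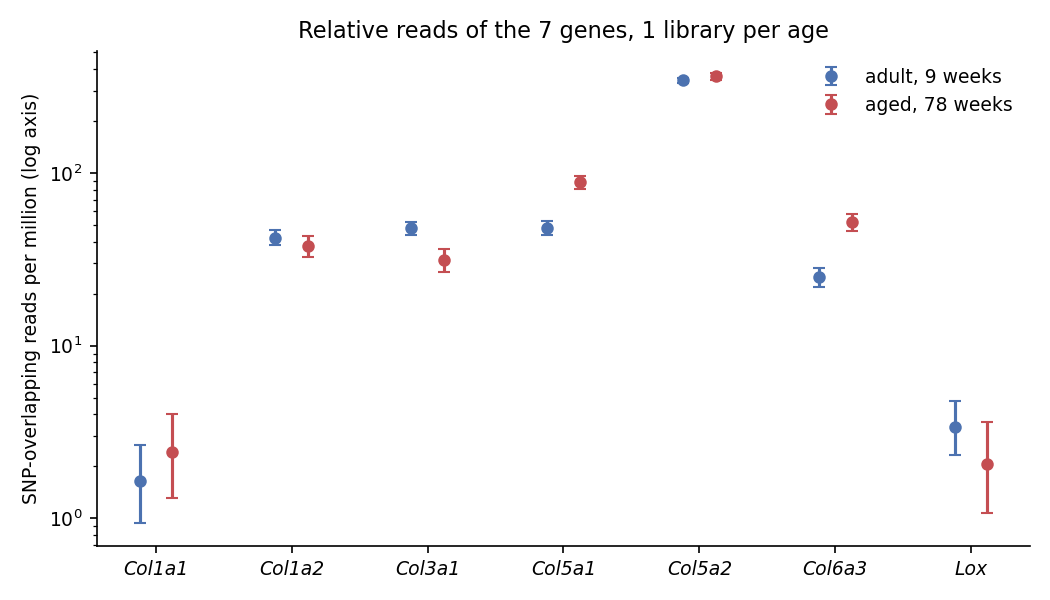
Relative reads of the 7 genes at 9 weeks (blue) and the aged (red) library, in RPM on a log axis, with 95% Poisson intervals. Col5a1 and Col6a3 lie higher at 78 weeks (88.4 and 51.8 RPM), Col3a1 lies lower (31.2 RPM), and the intervals of Col1a1 and Lox are wide.

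As shares of the reads of the 7 genes, Col5a2 made up 67.3% (66.0 to 68.6%) at 9 weeks and 62.9% (61.3 to 64.6%) at 78 weeks. Col5a1 went from 9.36% (8.57 to 10.2%) to 15.4% (14.1 to 16.6%) and Col6a3 from 4.84% (4.26 to 5.47%) to 9.01% (8.06 to 10.0%). Col3a1 went from 9.30% (8.51 to 10.1%) to 5.42% (4.67 to 6.24%) and Col1a2 from 8.24% (7.49 to 9.04%) to 6.52% (5.71 to 7.42%). None of these 5 pairs of exact intervals overlapped, so the mixture of collagen reads differed between these libraries beyond counting error. The shares are parts of the same total and are not independent. That of Col5a2 was lower although its level was not (ratio 1.05, 0.993 to 1.11). How often such shares differ for other groups of loci was not determined. The group as a whole was at 513 RPM and 575 RPM, a ratio of 1.12 (1.07 to 1.17).

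The ratio of a locus varied with its length, which differed widely among the collagen genes. The median ratio was 1.38 over loci under 10 kb and 0.947 over those of 200 kb or more. Col5a1 and Col5a2 (153 and 129 kb) belong to the loci of 100 to 200 kb, of which the median was 1.02 and 19.2% were higher by 1.5-fold. Col6a3 (77.1 kb) belongs to the loci of 50 to 100 kb, with a median of 1.11 and 21.4% higher. Col1a2 and Col3a1 (35.9 and 38.2 kb) belong to the loci of 20 to 50 kb, with a median of 1.15 and 11.2% lower. Relative to the median of all loci set to 1, Col6a3 was at 1.79, Col5a1 at 1.58, Col5a2 at 0.901, Col1a2 at 0.762 and Col3a1 at 0.561, so that the same 2 genes stayed above the 1.5-fold limit and the same 1 below it. On that scale 18% of all loci were higher and 18.4% were lower by this fold.

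**Figure D2:**
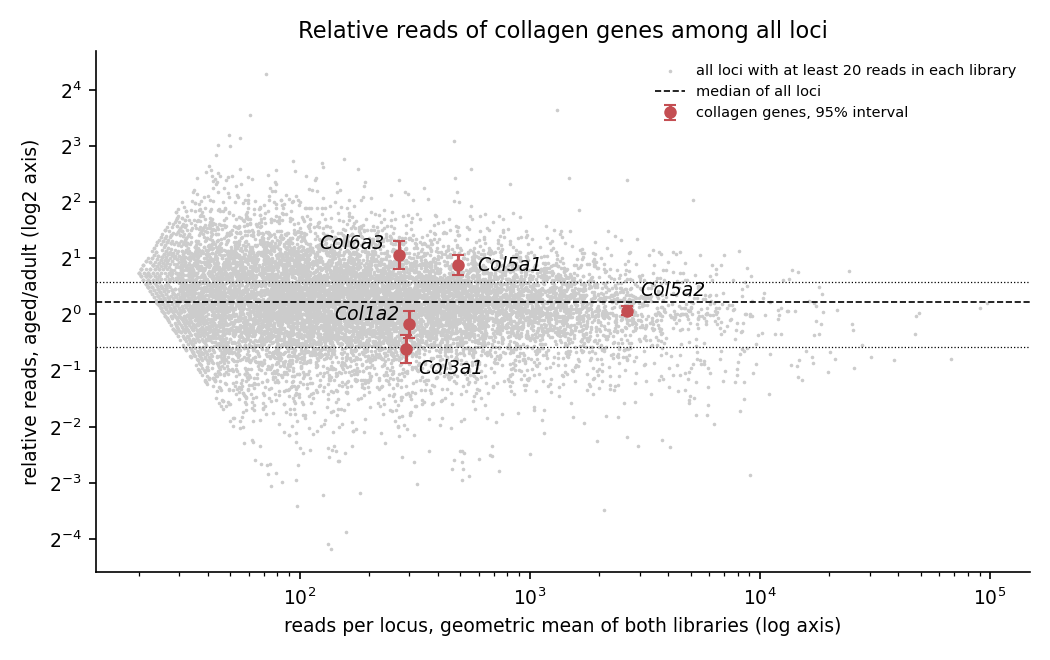
Ratio of relative reads (aged/adult, log2 axis) against the geometric mean of the reads of both libraries (log axis), with all loci in grey and the 5 collagen genes in red with 95% intervals. Col6a3 and Col5a1 lie above the upper dotted line of 1.5-fold and Col3a1 below the lower one, while the dashed line marks the median locus at 1.17.

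The cells that make these collagens were also read at a different level at 78 weeks. The 8 fibroblast marker genes summed to 1370 RPM at 9 weeks and 1904 RPM at 78 weeks, a ratio of 1.39 (1.36 to 1.43), and each of them was higher, by 1.14 to 2.40 times, although Abca8a, at 1.14, lay below the median locus at 1.17. By 1.5-fold, 5 of the 8 were higher and 0 lower, or 3 and 0 relative to the median locus. Abca8a, a transporter gene read mostly in fibroblasts, was at 754 RPM and 863 RPM, Dcn, the collagen-binding proteoglycan decorin, at 461 RPM and 773 RPM, and Pdgfra, a growth factor receptor, at 55.1 RPM and 94.2 RPM. In pooled nuclei, fewer or more cells of a type and less or more RNA per cell cannot be told apart. Among all nuclei, whichever X was active, the study counted a larger proportion of fibroblasts and a smaller one of cardiomyocytes in the aged heart. The part of this shift in the marker reads was not tested. Counted per 1000 fibroblast marker reads, Col5a2 went from 252 to 190 reads, a ratio of 0.755 (0.715 to 0.797), and Col1a2 from 30.9 to 19.7, a ratio of 0.639 (0.540 to 0.755). Col3a1 went from 34.8 to 16.4, a ratio of 0.470 (0.394 to 0.559). Col5a1 remained higher, from 35.1 to 46.4 with a ratio of 1.32 (1.17 to 1.504), as did Col6a3, from 18.1 to 27.2 with a ratio of 1.502 (1.26 to 1.79). On this scale 1 gene, Col6a3, was higher by 1.5-fold and 2 genes, Col3a1 and Col1a2, were lower. This scale rests on Abca8a, which gave 7353 and 5010 of the 13351 and 11054 marker reads. Without it the ratios of Col6a3 and Col5a1 were 1.23 and 1.09, and 0 genes were higher and 3 lower by 1.5-fold, with Col5a2 at 0.620 as the added one.

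Markers of other cells were read at different levels as well. The activated fibroblast markers had a summed ratio of 1.69 (1.54 to 1.86). Of their 5 genes with enough reads, 3 were higher by 1.5-fold, or 2 relative to the median locus. Over all loci these shares were 28% and 18%. Fap, a protease of activated fibroblasts, was at 46.2 RPM and 57.4 RPM, Acta2, the smooth muscle actin that also serves as a smooth muscle marker, at 22.3 RPM and 53.1 RPM, and Postn, the matrix protein periostin, at 14.3 RPM and 19.1 RPM. Smooth muscle markers had a summed ratio of 3.02 (2.79 to 3.27), pericyte markers 1.84 (1.68 to 2.02), macrophage markers 1.62 (1.54 to 1.70), endothelial markers 1.44 (1.39 to 1.49) and Schwann cell markers 1.26 (1.15 to 1.38). The medians of the last 2 lists, 1.14 and 1.09, lay below the median locus, with 4 of 7 endothelial genes and both Schwann cell genes with enough reads within 1.5-fold. Of 7 macrophage genes, 4 were higher by 1.5-fold, or 1 relative to the median locus. Of genes with enough reads, 4 of 4 smooth muscle and 3 of 4 pericyte markers were higher on either scale. Cardiomyocyte markers had a summed ratio of 0.941 (0.935 to 0.947) but a median of 1.15, with 2 of 8 higher and 1, Ttn, lower by 1.5-fold. Ryr2, the calcium release channel, had a ratio of 1.15, Ttn, the giant sarcomere protein titin, 0.580 and Myh6, the alpha myosin heavy chain, 1.15. Epicardial markers went from 480 to 68 reads, a ratio of 0.238 (0.182 to 0.307). Only 1 of these 4 genes, Wt1, had enough reads, at 0.302. Adipocyte markers were at 0.892 (0.708 to 1.12), with 2 of 4 genes having enough reads. The part of any of these cell types in the collagen values was not tested.

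**Figure D3:**
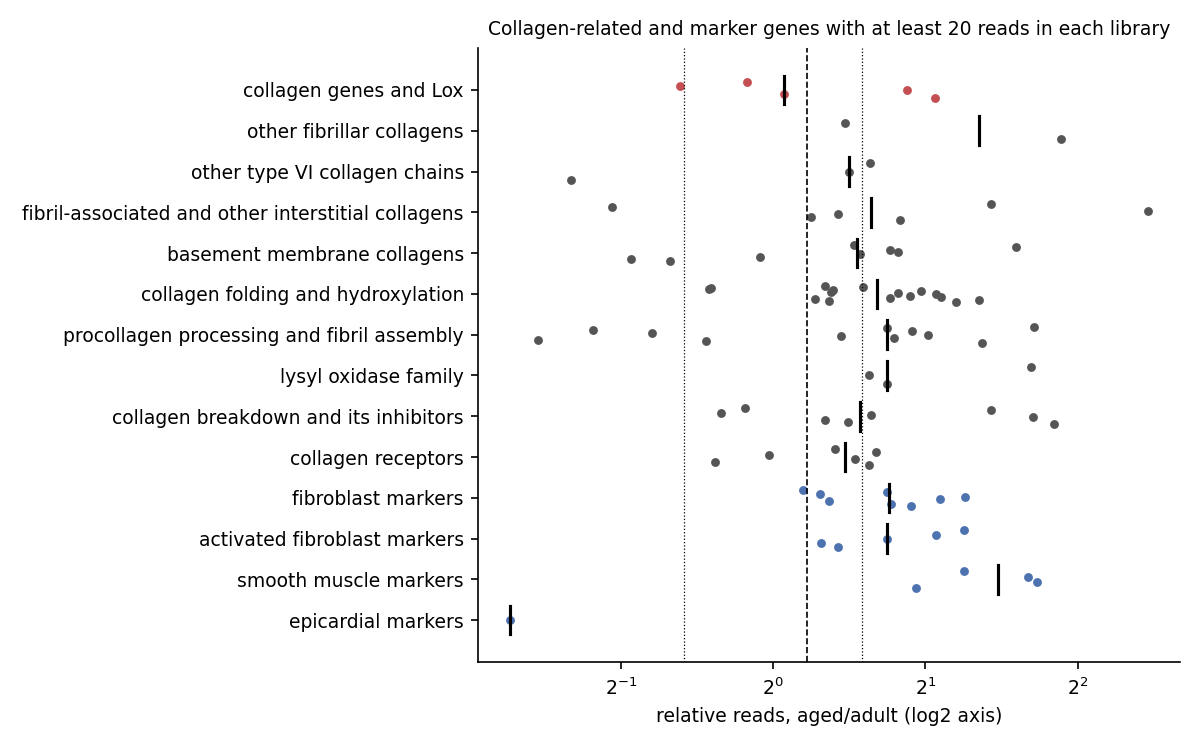
Ratio of relative reads (aged/adult, log2 axis) of each gene with at least 20 reads in each library, by list, with the median of each list as a vertical bar, the median of all loci (1.17) as a dashed line and 1.5-fold as dotted lines. The 5 collagen genes (red) spread from 0.654 to 2.09, while all 8 fibroblast markers (blue) lie to the right of 1.

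The alleles of the collagen genes were then compared by the allelic ratio, the share of BL6 reads among the reads of both alleles. Both alleles of an autosomal gene can be transcribed, and the median allelic ratio of autosomal loci with at least 20 reads was 0.536 at 9 weeks and 0.537 at 78 weeks, with the middle 50% of loci between 0.474 and 0.604 and between 0.465 and 0.613. X-linked loci had a median allelic ratio of 0.976 in both, which matches the choice of nuclei with a BL6 Xa. All 5 collagen genes with enough reads had an allelic ratio below the autosomal median at 9 weeks, and all but Col6a3 did at 78 weeks. By definition 50% of autosomal loci lie below that median. The 9-week intervals of Col3a1 (0.444 to 0.537) and Col6a3 (0.415 to 0.544) included it. Col1a2 was the only one at least 0.1 below the median in both libraries, as were 8.15% of autosomal loci.

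Col1a2 had 169 BL6 and 243 CAST reads at 9 weeks, an allelic ratio of 0.410 (0.362 to 0.459), and 68 BL6 and 150 CAST reads at 78 weeks, an allelic ratio of 0.312 (0.251 to 0.378). The CAST allele thus gave the majority of reads at both ages. The difference of the allelic ratio (aged minus adult) was -0.0983 (-0.173 to -0.0189). The BL6 reads were lower at 78 weeks, at 11.7 RPM against 17.3 RPM (ratio 0.676, 0.502 to 0.900), while the CAST reads were at 25.8 RPM against 24.9 RPM (ratio 1.04, 0.840 to 1.28). Of the loci next to it, LOC108169127 had an allelic ratio of 0.236 and 0.378, and Casd1 of 0.648 and 0.533.

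Col5a2 was the gene with the most precise allelic ratio. It had 1605 BL6 and 1758 CAST reads at 9 weeks (allelic ratio 0.477, 0.460 to 0.494) and 897 BL6 and 1205 CAST reads at 78 weeks (allelic ratio 0.427, 0.405 to 0.448). These exact intervals did not overlap, and the difference was -0.0505 (-0.0775 to -0.0234). It was the only collagen gene without overlap, 1 of 5. Over all autosomal loci with at least 20 reads in each library 11.8% had no overlap, and of those with 1000 or more reads in the shallower library, as Col5a2 had, 31.7%. By allele, the BL6 reads were at 165 RPM and 154 RPM (ratio 0.938, 0.864 to 1.02) and the CAST reads at 180 RPM and 208 RPM (ratio 1.15, 1.07 to 1.24).

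Col3a1, the tail-to-tail neighbour of Col5a2, had 228 BL6 and 237 CAST reads at 9 weeks (allelic ratio 0.490, 0.444 to 0.537) and 75 BL6 and 106 CAST reads at 78 weeks (allelic ratio 0.414, 0.342 to 0.490). Its difference of -0.0760 (-0.159 to 0.00973) had the same sign as that of Col5a2 but included 0. Both alleles were lower at 78 weeks, the BL6 allele with a ratio of 0.552 (0.420 to 0.720) and the CAST allele with 0.751 (0.591 to 0.948). With the reads of the neighbours added together, the allelic ratio was 0.479 at 9 weeks and 0.426 at 78 weeks, a difference of -0.0531 (-0.0787 to -0.0273), which rests mostly on Col5a2. Outside the pair, Gulp1, the next locus on the side of Col3a1, had an allelic ratio of 0.583 and 0.562, and Wdr75, the next on the side of Col5a2, had 0.496 and 0.553, so that the latter difference had the opposite sign.

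Col6a3 was the gene whose BL6 share was higher at 78 weeks with an interval of the difference above 0. It had 116 BL6 and 126 CAST reads at 9 weeks (allelic ratio 0.479, 0.415 to 0.544) and 173 BL6 and 128 CAST reads at 78 weeks (allelic ratio 0.575, 0.517 to 0.631), a difference of 0.0954 (0.0110 to 0.178). Both alleles were higher at 78 weeks, with ratios of 2.50 (1.97 to 3.20) for BL6 and 1.71 (1.32 to 2.20) for CAST. Col5a1, which was also higher in total, had 210 BL6 and 258 CAST reads at 9 weeks (allelic ratio 0.449, 0.403 to 0.495) and 249 BL6 and 264 CAST reads at 78 weeks (allelic ratio 0.485, 0.441 to 0.530). Its difference of 0.0367 (-0.0258 to 0.0987) included 0, and both alleles were higher, by 1.99 times (1.65 to 2.40) for BL6 and 1.72 times (1.44 to 2.05) for CAST. The higher totals of Col5a1 and Col6a3 were therefore seen on either allele.

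By the interval of the difference instead of the overlap of both intervals, 3 of the 5 genes differed in allelic ratio between the libraries, namely Col1a2, Col5a2 and Col6a3. Of autosomal loci with 100 or more but under 1000 reads in the shallower library, the class of Col1a2 and Col6a3, 28.9% differed by this measure and 14.1% had intervals without overlap. Of those with 1000 or more reads, 49.4% differed by this measure. Differences of this kind between these libraries were therefore common, and 3 of 5 genes in different directions is a count set beside those shares, not a result about collagen genes as a group.

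**Figure D4:**
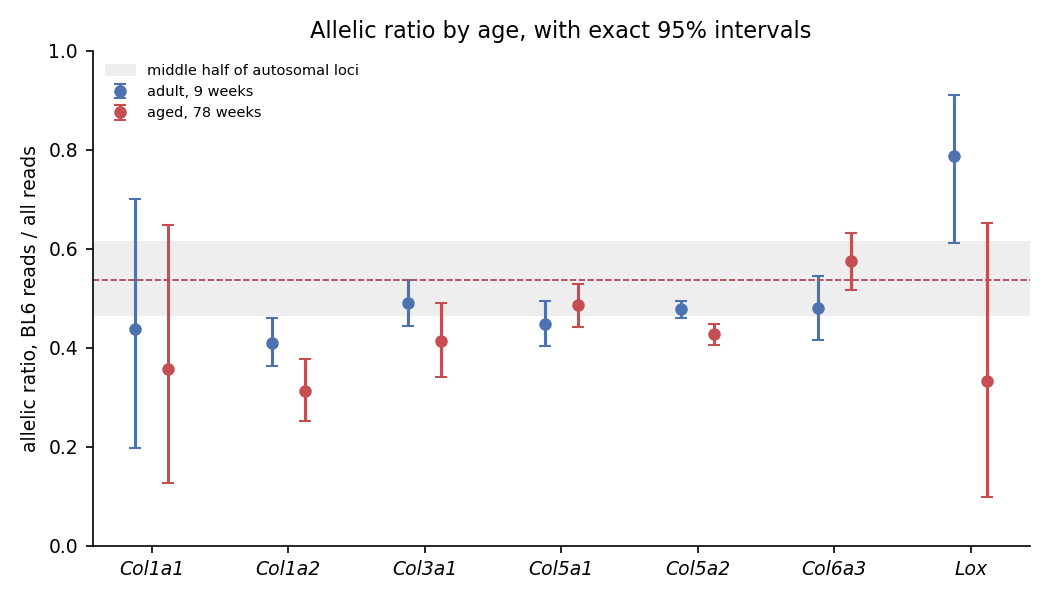
Allelic ratio (BL6 reads over all reads) of the 7 genes at 9 weeks (blue) and aged (red) library with exact 95% intervals; dashed lines mark the autosomal medians of 0.536 and 0.537 and the grey band the middle 50% of autosomal loci. Col1a2 lies below the band at both ages, Col3a1 and Col5a2 lie below it at 78 weeks only and Col5a1 at 9 weeks only, and the intervals of Col1a1 and Lox span a large part of the axis.

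**Figure D5:**
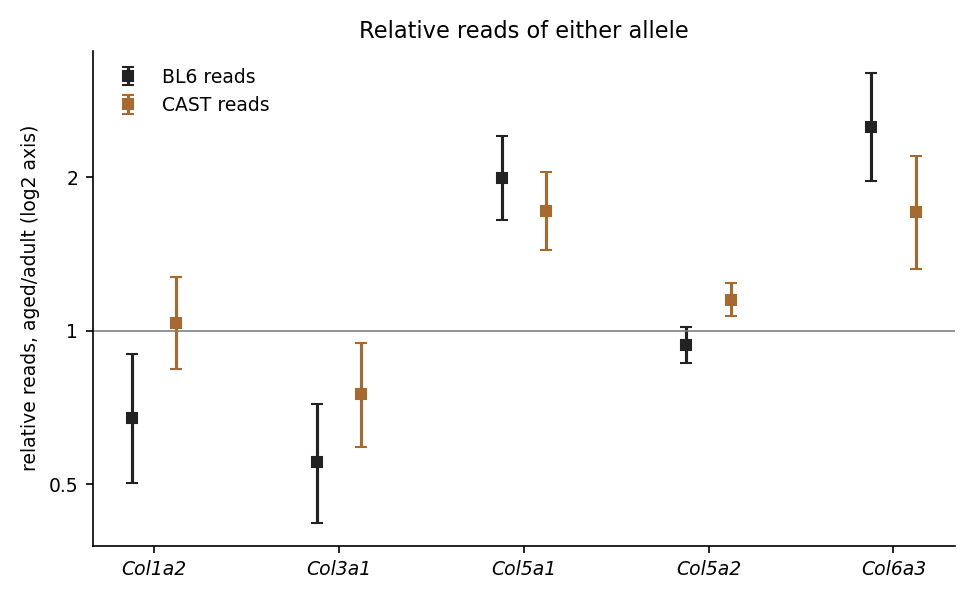
Ratio of relative reads (aged/adult, log2 axis) counted separately for BL6 (black) and CAST reads (brown), with 95% intervals. Both alleles of Col5a1 and Col6a3 lie above 1 and both of Col3a1 below 1, while only the BL6 interval lies below 1 for Col1a2 and only the CAST interval above 1 for Col5a2.

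The reads of Col1a1 and Lox (chr18:52516060-52529867, minus strand) were too few for a comparison of alleles. Col1a1 had 7 BL6 and 9 CAST reads at 9 weeks and 5 BL6 and 9 CAST reads at 78 weeks, with allelic ratios of 0.438 (0.198 to 0.701) and 0.357 (0.128 to 0.649). Lox had 26 BL6 and 7 CAST reads at 9 weeks (allelic ratio 0.788, 0.611 to 0.910) and 4 BL6 and 8 CAST reads at 78 weeks (allelic ratio 0.333, 0.0992 to 0.651). The exact intervals of Lox overlapped, although the interval of its difference of -0.455 (-0.676 to -0.133) left out 0. The aged value of Lox rests on 12 reads, below the minimum, and Lox was therefore not counted.

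The other genes of the collagen pathway were read at different levels as well. Among the other fibrillar collagens, 5 of 6 were listed and 2 had enough reads, 1 of them higher by 1.5-fold on either scale, with a median of 2.55. Col5a3, the third chain of collagen V, went from 11.1 RPM to 41.2 RPM, a ratio of 3.72 (2.95 to 4.71), larger than that of Col5a1 with an interval that did not overlap it. Col27a1, a fibrillar collagen known from cartilage, was at 17.5 RPM and 24.3 RPM. Col24a1 (71 and 12 reads) and Col11a2 (17 and 10 reads) had too few.

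The chains that assemble with the product of Col6a3 were higher too, while an alternative to it was lower. Of the other collagen VI chains, 3 of 5 had enough reads, 1 of them higher and 1 lower by 1.5-fold (0 and 1 relative to the median locus), with a median of 1.41. Col6a1, on mouse chromosome 10 beside Col6a2, went from 16.1 RPM to 24.98 RPM, a ratio of 1.55 (1.23 to 1.96), and Col6a2 from 14.2 RPM to 19.98 RPM, a ratio of 1.41 (1.09 to 1.82). Both chains pair with an alpha3-like chain in the collagen VI monomer, and the interval of Col6a2 overlapped that of Col6a3, as did that of Col6a1. Col6a6, an alternative to the alpha3 chain, went from 46.8 RPM to 18.6 RPM, a ratio of 0.398 (0.319 to 0.491), in the opposite direction to Col6a3. Col6a4 had 6 and 7 reads.

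Of the collagens that decorate fibrils or form other interstitial networks, 6 of 14 had enough reads, with 3 higher and 1 lower by 1.5-fold on either scale and a median of 1.56. Col14a1, a collagen on the surface of fibrils, went from 161 RPM to 77.2 RPM (0.479, 0.430 to 0.532), and its locus overlapped 2 other loci. Col8a1, a short-chain network collagen, went from 115 RPM to 205 RPM (1.78, 1.64 to 1.94). Col20a1 was at 10.7 RPM and 14.3 RPM, and Col26a1 at 6.67 RPM and 7.92 RPM. The basement membrane collagens, which underlie cardiomyocytes and vessels, had 8 of 9 genes with enough reads, 3 higher and 2 lower (2 and 2 relative to the median locus), with a median of 1.47. Col4a1 and Col4a2, the chains of the common collagen IV network, had ratios of 1.70 and 1.76, Col4a4 had 0.939, and the X-linked Col4a5 went from 405 RPM to 212 RPM (0.523, 0.491 to 0.558).

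Of the 19 genes of collagen folding and hydroxylation, 16 had enough reads, of which 9 were higher and 0 lower by 1.5-fold, with a median of 1.60. Relative to the median of all loci set to 1, 7 were higher and 2 lower. P4ha1, a prolyl hydroxylase subunit, went from 80.7 RPM to 169 RPM, a ratio of 2.09 (1.91 to 2.30). Plod2, a lysyl hydroxylase, had a ratio of 1.21, Mia3, which loads procollagen into export vesicles, 1.31, and P3h2, a prolyl 3-hydroxylase, 1.30.

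Genes of procollagen processing and fibril assembly split, with 6 of 11 higher and 3 lower, or 4 and 4 relative to the median locus, and a median of 1.68. Adamts3, a procollagen N-proteinase, was at 163 RPM and 71.5 RPM (0.440, 0.394 to 0.490), and Tll1, a procollagen C-proteinase, at 129 RPM and 44.3 RPM (0.342, 0.298 to 0.392). Tnxb, the fibril-spacing protein tenascin X, was at 75.9 RPM and 197 RPM (2.59, 2.36 to 2.85), and Pcolce2, an enhancer of C-proteinases, had 1.36. Across the whole list proteinases stood on either side, since Adamts2 (1.68), Bmp1 (1.88) and Adamts14 (3.28) also trim procollagen and were higher, and the other lower gene was Fn1, the matrix protein fibronectin, at 0.575; these 4 genes were named after their values were seen.

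Of the 4 other lysyl oxidases 3 had enough reads, each of them was higher by 1.5-fold, and relative to the median locus 1 of them was, while the median of the 3 was 1.68. Loxl1, known for crosslinking elastin, went from 19.2 RPM to 62.2 RPM, a ratio of 3.24 (2.71 to 3.89), Loxl3 from 15.8 RPM to 26.5 RPM (1.68, 1.33 to 2.11) and Loxl2 from 5.23 RPM to 8.10 RPM (1.55, 1.02 to 2.35). Loxl4, below the minimum with 30 and 13 reads, had a ratio of 0.728 (0.348 to 1.44). The upper limit of Lox, 1.21, lay below the intervals of Loxl1 and Loxl3, with 12 reads behind the aged value of Lox.

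Genes of collagen breakdown and its inhibitors had 8 of 13 with enough reads, of which 4 were higher and 0 lower (3 and 0 relative to the median locus), with a median of 1.48. Mrc2, a receptor that takes up collagen fragments, went from 56.3 RPM to 184 RPM (3.27, 2.94 to 3.63), and the inhibitors Timp3 and Timp2 had ratios of 1.41 and 1.27, while Mmp16, a membrane-bound metalloproteinase, had 0.788. Of the collagen receptors, 6 of 7 had enough reads, with 2 higher and 0 lower (0 and 1 relative to the median locus) and a median of 1.39. Ddr2, a receptor kinase for fibrillar collagen, went from 96.1 RPM to 154 RPM (1.60), Itgb1, the common integrin beta1 chain, had 1.55, Itga11, a collagen-binding integrin of fibroblasts, 1.45, and Itga1, another collagen-binding integrin, 0.980. Among the genes named from the lists, the loci of Col24a1, Col26a1, Col4a1, Col4a2, Col4a4, Plod2, Mia3, Adamts3, Loxl3, Timp3, Timp2, Itga1, Itgb1, Ddr2, Postn and Myh6 also overlapped another listed locus, and reads of overlapping loci may be uncertain in their gene. All lists set beside the 28% of loci higher and 11.8% lower were descriptions of these 2 libraries, and no set test was made.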

How the data were processed

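Per the submitters' processing notes and the study's methods, the authors aligned snRNA-seq reads of 1 adult and 1 aged heart with Cell Ranger (version 7.1.0) to mm10, separated the alignments by nucleus, pooled nuclei with a BL6 Xa and ran Allelome.PRO2 on RefSeq loci. Seurat (version 5.1.0) is named for the expression matrices, which were not used here. The deposited counts are SNP-overlapping reads of the BL6 and CAST alleles per locus, not normalized, with an allelic ratio (a fraction rounded to 2 decimals) and an allelic score that were deposited beside them. The score was not used, and the ratio served only as an alternative to the one computed from the counts. Removal of background RNA and of doublets is described for the matrices, and whether it applied to the pooled counts is not given in the sources used here. No doublet could be removed from pooled counts. Whether strand was used and duplicate reads were collapsed is not given in the sources used here. The aged deposit is named for a different week from the one its labels state, and the stated age was taken.

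Reads were divided by the reads of all loci of the library (9747535 adult and 5805807 aged), so that 1 read stood for 0.103 and 0.172 RPM. Loci needed 20 reads in each library to be counted against a fold of 1.5 in relative reads. Intervals (95%) were exact Poisson for reads, exact Clopper-Pearson for shares, conditional binomial for ratios and Newcombe for differences of allelic ratio. They were calculated with scipy 1.17.1 and Python 3.11.15. The calculation was also run on simulated reads drawn as independent, as the intervals assume. That run checked the calculation only, not whether the intervals hold for these counts. The intervals treat reads as independent and cover counting error only.

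All 7 genes were reported. The members and lists were chosen with earlier results of these data known. Of each pathway list, the up to 4 genes with the most summed reads were named, and of the fibroblast, activated fibroblast and cardiomyocyte markers up to 3. The nearest loci with enough reads on either side of each gene, and the autosomal locus with the most similar levels, were named as well. Adamts2, Bmp1, Adamts14 and Fn1 fall outside this rule. Alternatives comprised other denominators, read minimums, folds, alleles, intervals and references, of which 4 were added after the data were seen.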

Additional observations from a re-analysis of the deposited data

How the results depend on the processing

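The median ratio of the 5 genes, 1.05, was 0.901 with the median of all loci set to 1, 0.975 with the 1% of loci with the most reads left out of the total, 0.755 per fibroblast marker read, 0.620 per fibroblast marker read without Abca8a, 0.938 over BL6 reads and 1.15 over CAST reads. The count of 2 higher genes became 1 at a fold of 2 and 1 per fibroblast marker read, and 0 per fibroblast marker read without Abca8a. The count of 1 lower gene became 0 at a fold of 2, 2 with a minimum of 1 read or with at least 40 reads summed over both libraries (Lox was added), 2 per fibroblast marker read and 3 without Abca8a. The median allelic ratio, 0.477 at 9 weeks and 0.427 at 78 weeks, was 0.444 and 0.390 with the odds divided by the autosomal odds. The count of 1 gene with allelic ratio intervals apart became 3 by the interval of the difference. The count of 1 gene at least 0.1 from the median in both libraries became 3 at 0.05 (Col1a2, Col5a1 and Col5a2), 0 at 0.2 and 0 against a reference of 0.5. The cause of these shifts was not tested. Of 105 values of single genes under alternatives, 83 stayed within their interval and 22 moved out of it. Staying within was partly fixed in advance, since the deposited ratio is the same ratio rounded and the intervals of Col1a1 and Lox are wide. None of the genes called by fold, Col3a1, Col5a1 and Col6a3, changed direction. Among the others, Col5a2 went from 1.05 to 0.755 per fibroblast marker read and Col1a1 from 1.47 to 0.868 per marker read without Abca8a. Over CAST reads, Lox went from 0.611 to 1.92 and Col1a2 from 0.888 to 1.04. The alternatives without Abca8a, with 40 summed reads, by the interval of the difference and by length class were chosen after seeing the data. With 1 library per age no replicate could be left out. No paired analysis was possible because each age has 1 library.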

Other observations

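Loci next to the collagen genes did not move in 1 direction. On chromosome 1, Gulp1 beside Col3a1 had a ratio of 0.671 (0.634 to 0.710) and Wdr75 beyond Col5a2 had 0.891 (0.752 to 1.05). Cops8 and Mlph, the neighbours of Col6a3, had 1.60 (1.27 to 2.02) and 1.83 (1.11 to 3.03), and Mlph had an allelic ratio of 0.424 at 9 weeks and 0.139 at 78 weeks, from 33 and 36 reads. Rxra and Olfm1 on either side of Col5a1 had 1.43 (1.19 to 1.72) and 2.56 (1.43 to 4.67). The intervals of these neighbours and of those of Col6a3 lay above equality. The median locus was itself above equality at 1.17, a value within the interval of Mlph, and 28% of all loci were higher by 1.5-fold. Casd1 and LOC108169127 on either side of Col1a2 had 0.534 (0.425 to 0.667) and 0.586 (0.392 to 0.859). Xylt2 and Sgca around Col1a1 had 1.93 (1.18 to 3.18) and 0.758 (0.675 to 0.851), and Srfbp1 and Sncaip around Lox had 1.22 (1.07 to 1.40) and 0.408 (0.362 to 0.460).

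The locus most alike to each gene in its 4 values (BL6 and CAST, adult and aged, on the log2 scale of RPM plus 0.1, centred on their own mean) was sought among 4784 autosomal loci with at least 200 reads in each library. Phip was nearest to Col5a2 at a distance of 0.0141, Tacc1 to Col5a1 at 0.0367, Clstn1 to Col6a3 at 0.0466, Slit2 to Col1a2 at 0.0739 and Jmy to Col3a1 at 0.0838. Cpne1 was nearest to Col1a1 at 0.107, from 16 and 14 reads of Col1a1. Psma5 was nearest to Lox at 0.813, from 33 and 12 reads of Lox. No locus of this depth came closer to Lox, and the part of counting error in that distance was not determined. With 4 values and 1 library per age, likeness in this measure is a description.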
